A study of Mus musculus with 16 samples.

Results

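The small leucine-rich proteoglycans are secreted proteins of the extracellular matrix, and 8 of their genes were followed across the cell types of the newborn mouse testis: *Dcn* (decorin), *Lum* (lumican), *Ogn* (osteoglycin), *Aspn* (asporin), *Bgn* (biglycan), *Fmod* (fibromodulin), *Prelp* and *Omd* (osteomodulin). They were taken by symbol from a table of 30451 genes, and all 8 were listed. Whole testes of wild-type mice and of mice labelled *Ddx5* conditional knockout were dissociated with TrypLE at postnatal day 2, and single cells were captured in droplets with a 3′ kit that counts each transcript once by a unique molecular identifier (UMI). The knockout animals came from floxed *Ddx5* and a Cre driven by the promoter of *Mvh*, a germ cell gene, so the somatic cells described here were not the cells in which deletion was intended. The labels name no allele or treatment carried by both groups. The labels number 8 libraries in each genotype, but the table joins them under 1 barcode suffix each, so each genotype was treated as 1 library and no test between the genotypes was run. No label names a suffix, so the genotype of each suffix was assigned from the cell numbers in the paper's text. Pairs of values are given with the wild-type library first and the library assigned to the knockout label (the knockout-label library) second.

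Small leucine-rich proteoglycans carry a core of leucine-rich repeats that binds fibrillar collagen, and many of them carry chondroitin, dermatan or keratan sulfate chains. Decorin, biglycan and asporin form class I, lumican, fibromodulin, PRELP and osteomodulin class II, and osteoglycin belongs to class III. They set the spacing and thickness of collagen fibrils, and several bind growth factors such as TGF-β. In the neonatal testis the interstitium between the cords holds fibroblast-like stroma and Leydig cells, peritubular myoid cells wrap the cords, and Sertoli cells and gonocytes lie inside them.

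Cells were sorted into types by UMIs of a few marker genes after barcodes with fewer than 2000 genes or more than 10% mitochondrial UMIs were left out, which kept 6329 and 4950 cells. Stroma cells had at least 1 *Pdgfra* UMI and at most 2 of *Amh*, myoid cells at least 5 of *Acta2* and 2 of *Myh11*, Leydig cells at least 20 of *Cyp11a1*, *Cyp17a1* and *Hsd3b1* together, Sertoli cells at least 3 of *Amh*, and macrophages at least 5 of *C1qa*, *C1qb* and *C1qc* together. A cell of the last 4 gates was not counted as stroma, because 88.2% and 91.2% of myoid-gate cells also passed the stroma gate. This gave 2873 and 2495 stroma, 723 and 500 myoid, 165 and 128 Leydig, 2211 and 1599 Sertoli, and 25 and 18 macrophage cells. At least 5 of the 6 or 7 marker genes listed for each type were highest in its own gate in both libraries. These lists include the genes that define the gates, whose high level there follows from the gating and is no check of it. The exceptions were among the other markers. *Tcf21*, listed for stroma, was higher in myoid cells of the wild-type library. *Des*, listed for myoid cells, was higher in stroma in both libraries. Cells with at least 3 UMIs of *Pecam1* and *Cdh5* together were not treated as endothelium, because 1277 of 1427 also passed the stroma gate and only 4.98% had a *Pecam1* UMI.

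The kept cells held 82916872 and 66208479 UMIs, with a median of 11170.0 and 11668.5 per cell, and 12 barcode sequences occurred in both libraries. *Ddx5* stood at 1159 and 1736 CPM (UMIs of a gene per 1000000 UMIs of the summed cells) in cells of a germ gate, 119 and 12 cells. The targeted gene was thus higher in the library assigned to its loss, and directions below belong to the library so assigned. The *CRE* transgene ran with the assignment, with 0 UMIs over all barcodes of the wild-type and 20 of the knockout-label library. In stroma *Ddx5* was 617 and 557 CPM. Scrublet, which calls barcodes that look like 2 cells captured together, called 284 and 296 barcodes (4.49% and 5.98%), and these were kept except where stated. Hemoglobin genes, the blood markers *Hbb-bs* and *Hba-a1*, summed to 65.0 and 632 CPM in stroma. The labels put the wild-type libraries on lanes 2 and 3 and the others on lanes 3 and 4, and barcodes do not show their lane, so no comparison within a lane could be made.

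Most of the genes lie in clusters (GRCm38). *Dcn* (chr10:97479609-97518143, plus strand) and *Lum* (chr10:97565128-97572703, plus) are 47.0 kb apart. *Aspn* (chr13:49544443-49567565, plus), *Omd* (chr13:49582462-49592822, plus) and *Ogn* (chr13:49608046-49624501, plus) follow each other with gaps of 14.9 and 15.2 kb. All 3 lie within *Cenpp* (chr13:49464023-49652785), a centromere protein gene on the minus strand, and *Aspn* also overlaps a *Cenpp* exon. *Prelp* (chr1:133910304-133921414, minus) and *Fmod* (chr1:134037254-134048277, plus) are 116 kb apart, and *Bgn* (chrX:73483602-73495933, plus) stands alone on the X chromosome.

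The 100 bases before the annotated start are shown for the 3 neighbours of chromosome 13, whose levels were lower in cycling stroma cells, and for *Bgn*, whose level was nearly the same there. They come from RefSeq (GRCm38.p6), run 5′ to 3′ on the gene's strand, and capitals mark GGGCGG or its reverse complement CCGCCC, where matches may overlap.
Aspn, chr13:49544343-49544442, plus: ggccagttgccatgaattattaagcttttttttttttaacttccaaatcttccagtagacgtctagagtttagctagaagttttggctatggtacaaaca
Omd, chr13:49582362-49582461, plus: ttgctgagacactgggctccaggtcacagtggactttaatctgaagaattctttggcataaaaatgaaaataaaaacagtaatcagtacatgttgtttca
Ogn, chr13:49607915-49608014, plus: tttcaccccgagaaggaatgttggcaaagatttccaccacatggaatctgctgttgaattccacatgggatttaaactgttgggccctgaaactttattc
Bgn, chrX:73483501-73483600, plus: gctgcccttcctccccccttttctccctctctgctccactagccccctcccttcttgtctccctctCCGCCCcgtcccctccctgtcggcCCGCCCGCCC

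G and C made up 35%, 36% and 43% of the *Aspn*, *Omd* and *Ogn* stretches and 71% of the *Bgn* stretch, against a median of 55% over 32851 promoters of the same length. For *Fmod* and *Prelp*, whose stretches are not printed, the values were 50% and 64%. Within 250 bases before the start, *Bgn* held 3 matches to GGGCGG on either strand, a motif found in 32.7% of all promoters, and the other 5 genes with a RefSeq promoter held none. TATAAA, found on either strand in 12.4% of promoters, matched 2 times in *Aspn* and 2 times in *Ogn* and in no other of the 6. CCAAT, present in 33.8%, matched once each in *Aspn* and *Prelp*, and TGANTCA, present in 6.75%, matched in none. *Dcn* and *Lum* are named only.

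Levels are CPM of the summed cells. A transcript is counted once near its 3′ end whatever its length, so this scale has no length term and was used to compare genes. In stroma *Dcn*, whose protein decorates collagen fibrils, led with 86741 and 82326 UMIs, or 2920.1 and 3155 CPM. *Bgn*, its closest relative, followed with 659 and 644 CPM, and *Ogn* with 374 and 381 CPM. *Lum*, which carries keratan sulfate in the cornea and other tissues, stood at 129 and 186 CPM and *Aspn*, which lacks the chain attachment site of its relatives, at 106 and 134 CPM. *Omd*, *Fmod* and *Prelp* were low, at 3.70 and 3.83, 2.19 and 2.11, and 1.62 and 1.69 CPM, from 44 to 110 UMIs per library. The order of the 8 was the same in both libraries. The 95% Poisson intervals, which here and below cover counting error only, were apart between neighbours in this order within each library, except that those of *Fmod* and *Prelp* overlapped.

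Nearly every stroma cell carried *Dcn*. After each cell was thinned to 4000 UMIs, 95.7% and 97.0% of stroma cells had a *Dcn* UMI, 89.9% and 89.2% a *Bgn* UMI and 63.8% and 66.2% an *Ogn* UMI. *Lum* was found in 22.9% and 30.6% and *Aspn* in 23.6% and 28.7% of the cells, and the 3 low genes in at most 1.33%. Without thinning the median stroma cell had 26 and 29 *Dcn* UMIs, with a highest count of 139 and 187. For comparison, 13.6% and 18.5% of thinned cells of the Sertoli gate, a type that should lack *Dcn*, had a *Dcn* UMI, 8.14% and 9.57% a *Bgn* UMI, 4.48% and 6.70% an *Ogn* UMI, 2.08% and 3.82% a *Lum* UMI and 1.18% and 3.75% an *Aspn* UMI. *Prelp* was found in 0.662% and 0.442% of stroma cells and 0.588% and 0.876% of Sertoli-gate cells, so its share in stroma is not read as expression. *Fmod* (0.871% and 0.843% in stroma against 0.407% and 0.125%) and *Omd* (1.29% and 1.32% against 0.226% and 0.125%) lay above the Sertoli-gate share in both libraries. Their median depth was 13626 and 15671 UMIs before thinning, against 9497 and 9599 in stroma.

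Stroma held most UMIs of the 5 abundant genes, with the smallest share for *Bgn*. It took 35.8% and 39.4% of all UMIs, and 83.4% and 82.6% of those of *Dcn*, 82.7% and 84.1% of *Lum*, 83.0% and 81.7% of *Aspn* and 80.0% and 80.0% of *Ogn*. For *Bgn* the share was 60.6% and 66.0%, and a further 29.7% and 23.9% lay in myoid cells, which held 10.7% and 9.77% of all UMIs. *Fmod* was split likewise, with 34.7% and 26.5% of its UMIs in myoid cells. *Prelp* differed from the others, because 40.9% and 52.3% of its few UMIs lay in Sertoli-gate cells, which held 42.9% and 42.2% of all UMIs.

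**Figure D1:**
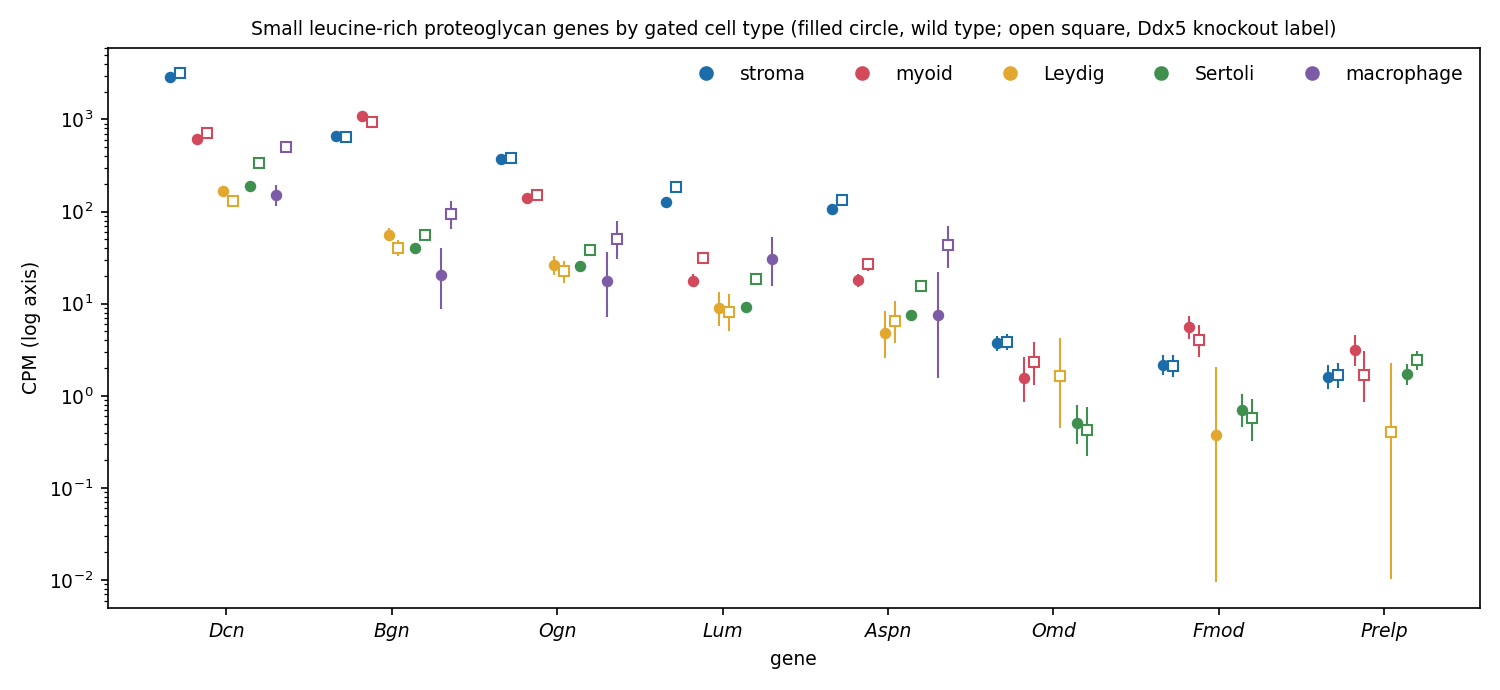
Level of each of the 8 genes (CPM, log axis) in each gated cell type, with filled circles for the wild-type and open squares for the knockout-label library and bars for the exact 95% Poisson interval (sums with 0 UMIs are not drawn). *Dcn* is highest in stroma (2920.1 and 3155 CPM), *Bgn* is highest in myoid cells (1082 and 942 CPM), and *Prelp* lies between 1.62 and 3.16 CPM in stroma, myoid and Sertoli cells.

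The comparison of types asked in which cells each gene was higher, with edgeR's quasi-likelihood test on 10 sums (5 types in 2 libraries) across 15664 genes and Benjamini-Hochberg adjustment. Since each type has only 2 sums, and nothing says how many animals lie behind them, the p-values measure the spread between these sums alone.

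Against the Sertoli gate, 7 of the 8 genes were higher in stroma, where 35.2% of all genes tested were higher. *Dcn* in Sertoli-gate cells stood at 187 and 336 CPM, *Bgn* at 40.7 and 55.3, *Ogn* at 25.7 and 37.9, *Lum* at 9.13 and 18.7, and *Aspn* at 7.47 and 15.7 CPM. Both libraries were far under stroma for each of these 5. The log2 difference (stroma minus Sertoli) was 3.56 ± 0.24 (SE) for *Dcn* (edgeR adjusted p = 7.19e-09), 3.75 ± 0.19 for *Bgn* and 3.42 to 3.57 for *Ogn*, *Lum* and *Aspn*. *Omd* (0.506 and 0.430 CPM in Sertoli) differed by 2.95 ± 0.40 and *Fmod* (0.702 and 0.573 CPM) by 1.72 ± 0.34 (edgeR adjusted p = 0.000503). *Prelp*, a class II member known from basement membranes and cartilage, did not pass, with 1.71 and 2.44 CPM in Sertoli, a log2 difference of -0.33 ± 0.35 and an edgeR adjusted p = 0.401.

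What remained of the abundant genes in the Sertoli gate lay in few barcodes. The 175 and 188 Sertoli-gate barcodes called as doublets, 7.92% and 11.8% of the gate, held 87.5% and 85.9% of its *Dcn* UMIs, 92.1% and 81.0% of *Aspn*, 90.4% and 86.8% of *Ogn*, 83.4% and 79.9% of *Lum* and 82.3% and 81.7% of *Bgn*. They held only 13.1% and 10.3% of the *Prelp* UMIs and 8% and 37.5% of the *Fmod* UMIs. In the 1963 and 1330 barcodes neither called nor with a *Pdgfra* UMI, *Dcn* fell from 6.42% and 10.6% of its stroma level to 0.595% and 0.764%, and *Bgn* from 6.18% and 8.59% to 1.10% and 1.02%. *Prelp* stayed at 106% and 159% of its stroma level in these barcodes, and *Fmod* at 33.8% and 20.1%. The caller reads all genes, these 8 included, and *Pdgfra* is part of the stroma gate, so the drop of the stroma genes is a description.

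Without these barcodes the log2 differences (stroma minus Sertoli) of the 5 abundant genes were 6.57 to 7.49, against 3.42 to 3.75 with them, whereas *Fmod* moved to 1.87 and *Prelp* to -0.38 (edgeR adjusted p = 0.340). The summed level of the 7 stroma markers, 8865 and 8788 CPM in stroma, was 552 and 853 CPM in the whole Sertoli gate.

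**Figure D2:**
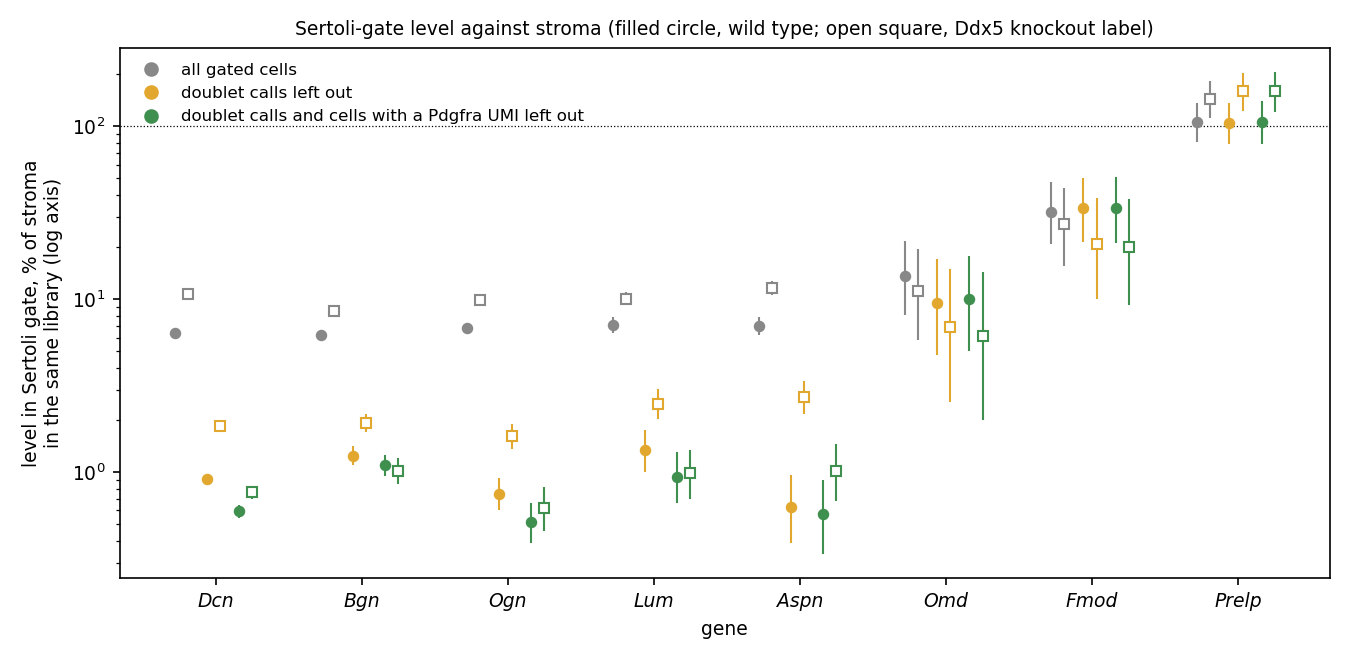
Level in the Sertoli gate as a percent of the stroma level (log axis) for each gene, for all cells, for cells not called as doublets, and for cells neither called nor with a *Pdgfra* UMI, with filled circles for wild type and open squares for the knockout label. Bars are the 95% Poisson interval of the Sertoli level with the stroma level taken as fixed. *Dcn* drops from 6.42% and 10.6% to under 1%, while *Prelp* stays above 100% throughout.

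Myoid cells had the reverse order of *Bgn* and *Dcn*. *Bgn* was 1082 and 942 CPM in myoid against 659 and 644 CPM in stroma, and *Fmod* 5.64 and 4.02 against 2.19 and 2.11 CPM, so both libraries were higher in myoid cells for both genes. *Dcn* was 618 and 712 CPM in myoid cells, *Ogn* 140.1 and 152, *Lum* 17.8 and 31.4, and *Aspn* 18.1 and 26.7 CPM, each under both stroma values. Thus 4 of 8 genes passed as higher in stroma, where 13.8% of all genes did, and 2 as lower, where 12.3% did.

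The differences (stroma minus myoid) ran from 1.34 ± 0.12 for *Ogn* (edgeR adjusted p = 1.62e-06) and 2.16 ± 0.23 for *Dcn* to 2.42 ± 0.16 for *Aspn* and 2.67 ± 0.19 for *Lum*. *Bgn* differed by -0.67 ± 0.16 (edgeR adjusted p = 0.00783) and *Fmod*, which binds and helps to order collagen fibrils, by -1.20 ± 0.32 (edgeR adjusted p = 0.0148). DESeq2's Wald test on the same sums did not call *Bgn* (adjusted p = 0.281) or *Lum* (adjusted p = 0.0718), and edgeR did not call *Fmod* when cells counted in every gate they passed (adjusted p = 0.0718). *Omd* was 1.58 and 2.32 CPM in myoid cells and *Prelp* 3.16 and 1.70 CPM, and neither passed (edgeR adjusted p = 0.119 and 0.295), although *Omd* was called higher in stroma without the low-count filter (edgeR adjusted p = 0.0409). The stroma marker sum in myoid cells was 3944 and 4033 CPM.

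Leydig cells held little of any member. *Dcn* stood at 168 and 129.9 CPM, *Bgn* at 56.4 and 40.6, *Ogn* at 26.1 and 22.5, *Lum* at 8.97 and 8.20 and *Aspn* at 4.86 and 6.56 CPM. All 8 genes were called higher in stroma, where 31.2% of all genes were, and the median of all genes was 0.10 on this log2 scale. Of these calls *Prelp* was lost with DESeq2's Wald test (adjusted p = 0.0836) and when cells counted in every gate they passed (edgeR adjusted p = 0.0686). Under a stricter cell filter (2500 genes, 5% mitochondrial UMIs), which left 33 and 17 Leydig cells, *Prelp*, *Omd* and *Fmod* were not called (edgeR adjusted p = 0.300, 0.320 and 0.601), and the share of all genes called higher was 13.9%. *Aspn* differed by 4.36 ± 0.26, *Dcn* by 4.27 ± 0.27 and *Bgn* by 3.68 ± 0.22 (edgeR adjusted p = 3.01e-09 to 5.20e-09). Without the 5 and 9 Leydig-gate barcodes called as doublets and those of the other types, the differences were 6.09 for *Aspn*, 5.37 for *Lum* (4.12 with them), 5.11 for *Dcn* and 3.98 for *Bgn*. The 3 low genes rest on almost no Leydig UMIs. *Fmod* had 1 and 0, *Prelp* 0 and 1 and *Omd* 0 and 4, and 3 UMIs, the floor used here for a count of 0, correspond to 1.12 and 1.23 CPM. For *Fmod* in the wild-type library the stroma level was 5.86-fold the Leydig level, with a counting interval of 1.01 to 235. Cells of the Leydig gate with a *Pdgfra* UMI, 40 and 27 of them, held 95.3% and 82.3% of its *Dcn* UMIs and 76.2% and 73.7% of its *Bgn* UMIs.

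Against Leydig cells, myoid cells had 7 of the 8 higher, where 30.3% of all genes were. *Bgn* led among the abundant genes with a log2 difference (myoid minus Leydig) of 4.35 ± 0.22 (edgeR adjusted p = 6.16e-10), followed by *Ogn* with 2.55 ± 0.18 and *Dcn* with 2.11 ± 0.25. *Lum* differed by 1.45 ± 0.38 (edgeR adjusted p = 0.00428), and *Omd* did not pass (edgeR adjusted p = 0.217). *Lum* was not called by DESeq2's Wald test (adjusted p = 0.252) or with cells thinned to 4000 UMIs (edgeR adjusted p = 0.0516). Under the stricter cell filter only *Ogn* and *Bgn* passed, where 14.8% of all genes did, and *Lum* changed sign (-0.04). Without called doublets the differences were larger, 3.21 for *Aspn* (1.94 with them), 2.72 for *Dcn* and 2.38 for *Lum* (edgeR adjusted p = 0.000349).

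The macrophage sums came from 25 and 18 cells. *Dcn* had 60 and 186 UMIs there (152 and 498 CPM), *Bgn* 8 and 35, *Ogn* 7 and 19, *Aspn* 3 and 16 and *Lum* 12 and 0, while *Fmod*, *Prelp* and *Omd* had none in either library. With the 3 UMIs that a count of 0 allows, equal to 7.59 and 8.04 CPM, no fold could be given for these 3. The other 5 were called higher in stroma, where 20% of all genes were, by 2.10 ± 0.38 (*Aspn*, edgeR adjusted p = 0.000508) to 3.34 ± 0.32 (*Bgn*), while the median of all genes lay at 0.46. One barcode, called as a doublet, held all 12 *Lum* UMIs of these cells and 38 of the 60 wild-type *Dcn* UMIs. Without called doublets *Lum* was still called higher in stroma (edgeR adjusted p = 6.23e-06), but both libraries then had 0 *Lum* UMIs in macrophages, so no size is given for *Lum*. The stroma marker sum was 630.3 and 1798 CPM in these cells, and its part in the *Dcn* level was not tested. In cells of the germ gate *Dcn* stood at 83.1 and 145 CPM.

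Genes that work with the proteoglycans were read from 5 further lists. Of the 15 fibrillar collagens and their partners all 15 were higher in stroma than in the Sertoli gate, where 35.2% of all genes were, with a median log2 difference of 3.51 against 3.48 for the 8 proteoglycans and -0.02 for all genes. The elastic fiber gene *Eln* differed by 3.75 ± 0.19 and the collagen gene *Col1a2* by 3.69 ± 0.17. Of 9 tested proteases and procollagen processing genes all 9 were higher, among them *Adamts4* (3.75 ± 0.33) and *Adamts5* (3.64 ± 0.16), which cut proteoglycan core proteins. Of 25 tested genes for chain synthesis and sulfation 20 were higher and 3 lower (median 1.52), where 37.6% of all genes were lower, led by the sulfotransferase *Chst2* (4.30 ± 0.12). Of 11 tested ligands and receptors 9 were higher and 1 lower, with the receptors *Egfr* (3.62 ± 0.15) and *Met* (3.43 ± 0.26) and the ligand *Tgfb2* (3.31 ± 0.15) in front. These sizes include the Sertoli-gate barcodes called as doublets or with a *Pdgfra* UMI, without which the abundant proteoglycan genes differed by more. *Col1a1* stood at 1626 and 1617 CPM in stroma and at 100 and 164 CPM in the whole Sertoli gate. The lists were not read without those barcodes, so the near-equal medians are not read as equal effects.

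Only 3 of 9 other small leucine-rich proteoglycan genes had enough UMIs to be tested. *Ecm2*, which lies next to *Aspn*, stood at 22.4 and 19.5 CPM in stroma, *Tsku* at 4.91 and 5.79 and *Optc*, the neighbour of *Prelp*, at 2.02 and 2.03 CPM. All 3 were higher in stroma than in the Sertoli gate, where 35.2% of all genes were. *Optc* was lower in stroma than in myoid cells, where 12.3% of all genes were, by 1.47 ± 0.33 on the log2 scale (edgeR adjusted p = 0.00428), the direction of *Fmod*. *Ecm2* was higher in stroma than in myoid cells (0.59 ± 0.17, edgeR adjusted p = 0.0174), where 13.8% of all genes were, and *Tsku* was not called.

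Against myoid cells the lists were mixed. Of the 15 collagens and partners 8 were higher in stroma, where 13.8% of all genes were, and 1, *Col14a1* (-2.10 ± 0.14), a collagen of the fibril surface, was lower. For chain synthesis 2 of 25 were higher and 5 lower, where 13.8% and 12.3% of all genes were. The sulfotransferases *Chst1* (-1.40 ± 0.15) and *Chst2* (-1.35 ± 0.08) were lower in stroma and *Chst12* (1.03 ± 0.18) higher. Of the ligands and receptors 5 were higher and 4 lower, and the medians of the 5 lists ran from 0.12 to 0.41 against 1.14 for the 8 genes and 0.02 for all genes.

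Within stroma, cells with a *Tbata* UMI and without were compared, together with cycling cells (at least 4 UMIs of *Mki67* and *Top2a*) and non-cycling cells (at most 1), in a fit of 8 sums and 13299 genes that held each split fixed for the other. The 101 and 88 cells between the limits were left out. All 8 sums were cut from 2 libraries, so the standard errors and p-values of this fit measure the spread between these sums alone. They do not measure the spread between animals or libraries. Non-cycling cells numbered 1482 and 1445 without *Tbata* and 774 and 565 with it, cycling cells 311 and 263 and 205 and 134.

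*Lum* set *Tbata*-positive stroma apart. In non-cycling cells it was 184 and 216 CPM without *Tbata* and 55.7 and 99.5 CPM with it, and in cycling cells 147 and 276 against 57.8 and 93.9 CPM. All 4 positive sums lay under all 4 negative sums. The log2 difference was -1.41 ± 0.08 (edgeR adjusted p = 1.11e-11), lower than that of all but 0.564% of the genes. *Dcn* differed by -0.22 ± 0.02 (edgeR adjusted p = 8.47e-07), with 2833 and 3139 CPM in positive against 3397 and 3541 CPM in negative non-cycling cells, and *Bgn* by -0.16 ± 0.03 (edgeR adjusted p = 0.00133). Thus 3 of 8 were lower, where 4.53% of all genes were, and none was higher, where 3.69% were.

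*Aspn* (-0.08), *Ogn* (0.08) and *Omd* (0.08) did not pass (edgeR adjusted p = 0.425, 0.342 and 0.933), nor did *Fmod* (0.73 ± 0.31, edgeR adjusted p = 0.204) and *Prelp* (-0.76 ± 0.36, edgeR adjusted p = 0.261), which had 31 and 26 and 12 and 11 UMIs in positive cells. When stroma also kept the cells of the other gates, *Dcn* was not called (-0.05, edgeR adjusted p = 0.415) and *Ogn* was called higher (0.21, edgeR adjusted p = 0.00276). Of the 15 collagens and partners 9 were lower in positive cells and 1 higher, led by *Col14a1* (-1.23) and *Col12a1* (-1.13), both collagens of the fibril surface, where 4.53% of all genes were lower and 3.69% higher, while the chain synthesis genes had 2 higher and 1 lower of 25.

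**Figure D3:**
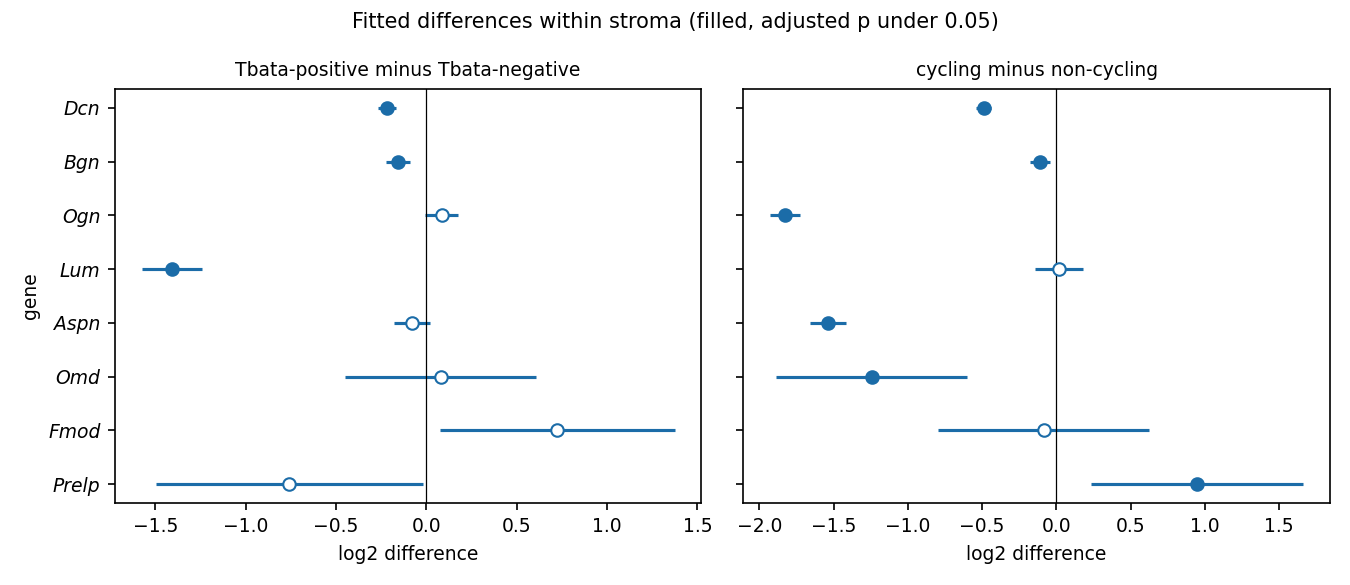
Log2 difference with its 95% interval for each of the 8 genes in the *Tbata* split and in the cycling split of stroma, from the fit of 8 sums, filled where the edgeR adjusted p was under 0.05. *Lum* is at -1.41 in the *Tbata* split and near 0 in the cycling split, where the libraries went in opposite directions, and *Ogn* and *Aspn* are at -1.83 and -1.54 in the cycling split and near 0 in the *Tbata* split.

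Cycling cells were low in the 3 neighbours of chromosome 13. *Ogn* was 465 and 469 CPM in non-cycling and 135 and 128 CPM in cycling stroma, and *Aspn* 130.3 and 163 against 46.7 and 53.9 CPM. *Omd*, with 9 and 16 UMIs in cycling cells, was 4.58 and 4.23 against 1.21 and 2.67 CPM. The log2 differences were -1.83 ± 0.05 for *Ogn* (edgeR adjusted p = 8.24e-21), -1.54 ± 0.06 for *Aspn* (edgeR adjusted p = 1.36e-17) and -1.24 ± 0.31 for *Omd* (edgeR adjusted p = 0.0017). Only 0.196% of the genes tested had a difference under that of *Ogn*, 0.436% under *Aspn* and 1.04% under *Omd*.

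Levels of both abundant neighbours were also read by the number of *Mki67* and *Top2a* UMIs. With 0, 1, 2 to 3, 4 to 9 and 10 or more of them, *Ogn* was 479, 352, 242, 209 and 119.5 CPM in the wild-type library and 476, 405, 219.8, 180.4 and 119.0 CPM in the other. *Aspn* was 134, 102, 52.2, 60.1 and 43.8 CPM, and 166, 136, 72.6, 77.1 and 50.1 CPM. *Ogn* fell from bin to bin and *Aspn* did not at every step, but both genes were lowest in the top bin in both libraries. In myoid cells cycling was likewise accompanied by less *Ogn*, at 59.4 and 51.0 CPM against 191 and 202 CPM. *Lum* in myoid cells was 17.2 and 8.49 CPM in cycling and 15.9 and 42.2 CPM in non-cycling cells, so it was far lower with cycling in the knockout-label library alone.

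The other members moved less. *Dcn* was 3190.0 and 3418 CPM in non-cycling and 2245 and 2462 CPM in cycling stroma (-0.49 ± 0.02, edgeR adjusted p = 6.74e-15). CPM is a share of the UMIs of a group. UMIs per cell were not compared between cycling and non-cycling cells, so a lower CPM need not be fewer UMIs per cell. *Bgn* was 680.0 and 654 against 599 and 628 CPM (-0.11 ± 0.03, edgeR adjusted p = 0.00586) and was not called after thinning (edgeR adjusted p = 0.141) or when cells counted in every gate they passed. In all, 5 of 8 were lower, where 23.9% of all genes were. *Prelp* was the only member called higher, where 25.8% of all genes were, from 17 UMIs in each library's cycling cells (2.28 and 2.84 CPM against 1.32 and 1.41 CPM, 0.95 ± 0.35, edgeR adjusted p = 0.0256). DESeq2's Wald test did not call *Prelp* (adjusted p = 0.106). The call was also lost when cells counted in every gate they passed and with at least 2 *Pdgfra* or 2 *Tbata* UMIs. After thinning *Prelp* was not tested. *Lum* (0.02 ± 0.08) and *Fmod* (-0.08 ± 0.34) did not pass (edgeR adjusted p = 0.867 and 0.859). The value of *Lum* near 0 averages opposite directions, since the ratio of cycling to non-cycling stroma was 0.793 in the wild-type and 1.15 in the knockout-label library.

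**Figure D4:**
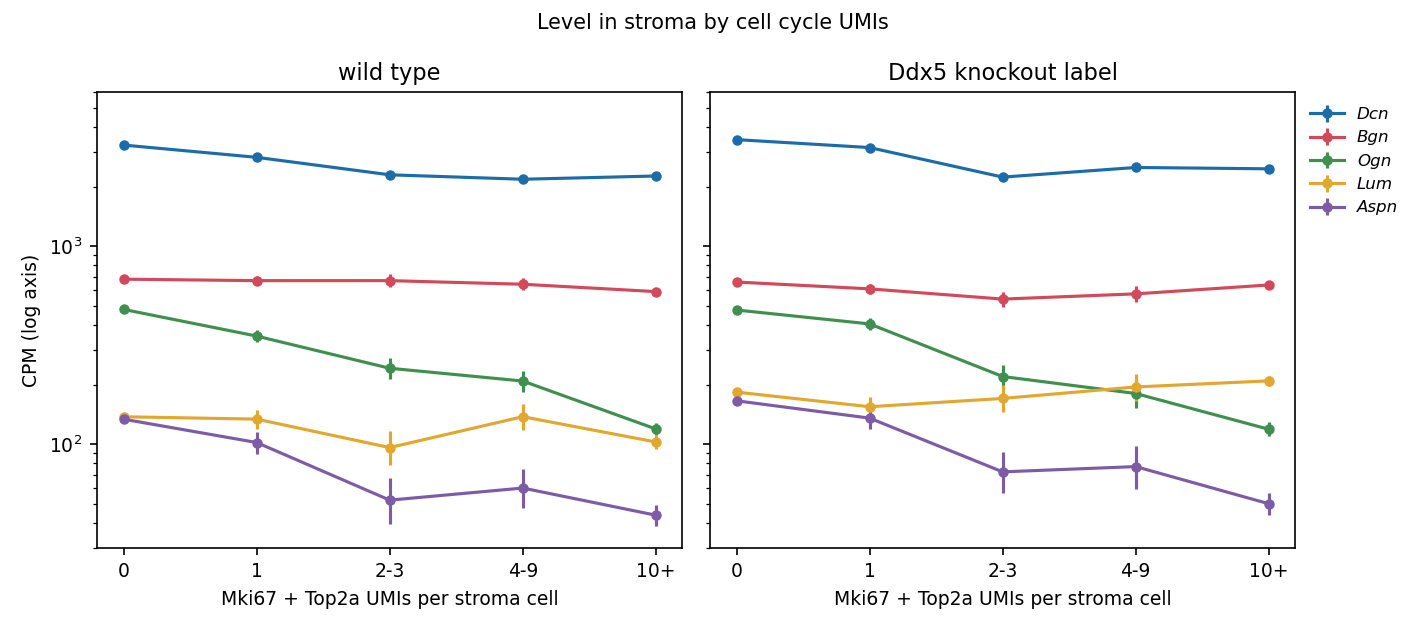
Level of the 5 abundant genes in stroma (CPM, log axis) by the number of *Mki67* and *Top2a* UMIs per cell in 5 bins, with 1 panel per library, 1 line per gene and 95% Poisson bars. *Ogn* goes from 479 and 476 CPM to 119.5 and 119.0 CPM, *Bgn* stays between 540.4 and 681 CPM, and *Lum* ends at 103 CPM in the wild-type and 209 CPM in the knockout-label library.

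*Cenpp*, within which the 3 genes lie on the opposite strand, went the other way, from 7.14 and 7.89 CPM in non-cycling to 94.5 and 110.1 CPM in cycling stroma (3.75 ± 0.08, edgeR adjusted p = 8.54e-23). *Aspn* shares exonic positions with *Cenpp*, and the strand setting of the counting is not given in the sources used here. *Ecm2*, the next gene on the plus strand, was lower by 0.80 ± 0.11 (edgeR adjusted p = 1.08e-06), and *Nol8*, just outside *Cenpp*, by 0.49 ± 0.13. Of the 15 collagens and partners 12 were lower in cycling cells and 2 higher, with a median of -0.24 against -0.30 for the 8 genes and -0.01 for all genes. Of 9 tested proteases 7 were lower and 1 higher, where 23.9% of all genes were lower and 25.8% higher. Of the 25 chain synthesis genes 7 were lower and 6 higher, and of 9 tested ligands and receptors 3 were lower and 1 higher, which is close to those shares for chain synthesis.

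Between the libraries, no member passed a 1.5-fold difference in stroma, where 4.3% of 16363 genes were past it upward and 5.29% downward. The ratio of the knockout-label to the wild-type library was 1.45 (95% counting interval 1.39 to 1.51) for *Lum*, 1.26 (1.20 to 1.33) for *Aspn* and 1.08 (1.07 to 1.09) for *Dcn*. It was 1.02 (0.992 to 1.05) for *Ogn* and 0.977 (0.957 to 0.997) for *Bgn*, and the 3 low genes had intervals that included 1. With 1 library for each genotype these ratios have no replicate check. Marker sums of other cell types in stroma also differed between the libraries, with 65.0 and 632 CPM for hemoglobin and 38.5 and 12.5 CPM for the 4 germ cell markers. The 6 macrophage markers summed to 4.14 and 48.2 CPM, of which *Lyz2* had 0.875 and 39.7 CPM, most of the sum in the knockout-label library only. The part of these markers in the ratios was not tested.

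The *Lum* ratio was not even across stroma. It was 1.17 (1.11 to 1.24) in non-cycling cells without *Tbata*, and 1.79 (1.57 to 2.03) in non-cycling cells with *Tbata*, where 4.08% of genes were past 1.5-fold upward. It was 1.88 (1.70 to 2.08) in cycling cells without *Tbata*, with 4.21% of genes past 1.5-fold, and 1.62 (1.33 to 1.99) in cycling cells with it, with 5.61%. In myoid cells *Lum* had a ratio of 1.76 (1.42 to 2.18) and was the only member past 1.5-fold upward, where 3.73% of genes were. *Prelp* was the only member past it downward (0.538, interval 0.242 to 1.11), where 4.59% were. These counts changed with the setting. Without called doublets more members were past it both ways, where 3.79% of genes were upward and 4.49% downward. More were also upward when cells counted in every gate they passed, where 3.76% of genes were. The hemoglobin sum in myoid cells was 72.9 and 850.4 CPM, and its part in these ratios was not tested.

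**Figure D5:**
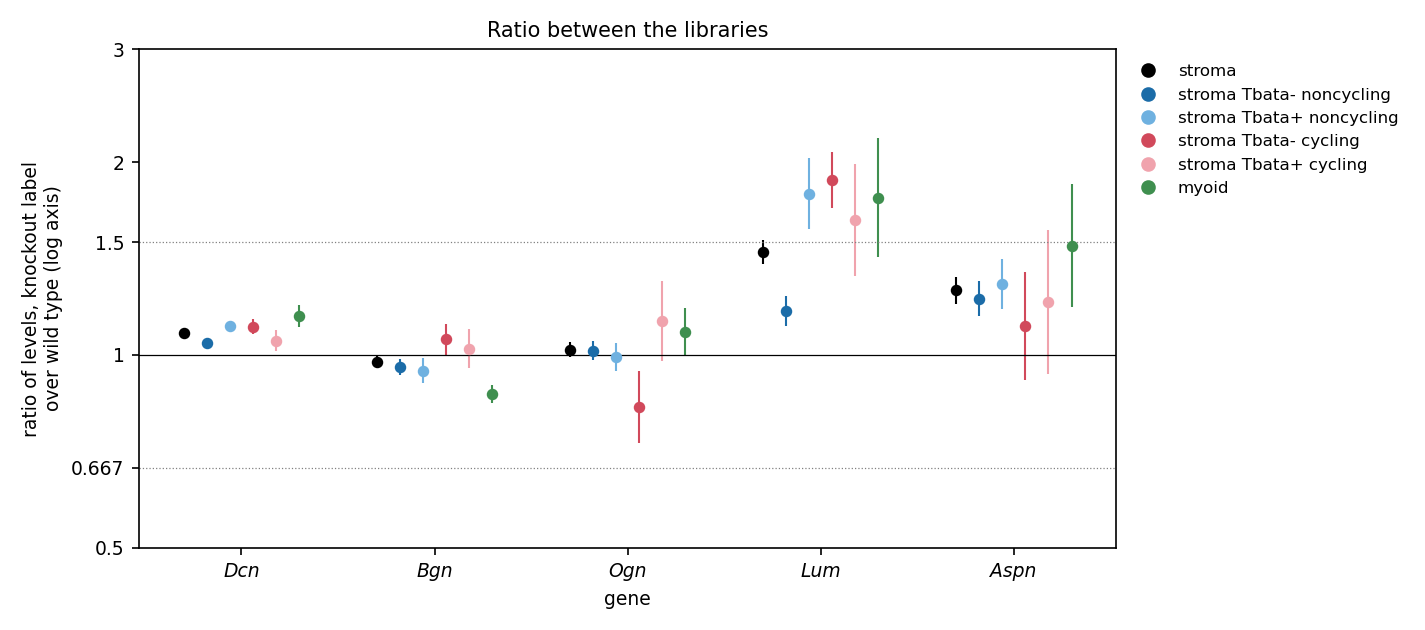
Ratio of the level in the knockout-label library to that in the wild-type library (log axis) with its exact 95% counting interval for the 5 abundant genes in stroma, in its 4 groups by *Tbata* and cycling, and in myoid cells, with dotted lines at 1.5-fold up and down. *Lum* lies at 1.45 in stroma, at 1.17 in non-cycling cells without *Tbata* and above the upper line in the other 3 groups and in myoid cells, and *Dcn*, *Bgn* and *Ogn* lie near 1.

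In Leydig cells none of the members with at least 20 UMIs was past 1.5-fold, where 5.11% of genes were upward and 5.86% downward. This changed with the setting. Members were past it downward under the stricter cell filter or without called doublets, where 14.4% and 6.24% of genes were. With thinning or every gate a member was past it upward, where 8.08% and 5.80% of genes were. The hemoglobin sum in these cells was 3.36 and 1407 CPM, and its part in the ratios was not tested. In the Sertoli gate *Aspn* (2.10), *Lum* (2.05) and *Dcn* (1.79) were past it, where 4.62% of genes were upward and 8.13% downward. In the Sertoli-gate barcodes neither called as doublets nor with a *Pdgfra* UMI, the ratio was 2.26 (1.21 to 4.32) for *Aspn* from 18 and 29 UMIs, 1.57 (1.05 to 2.33) for *Prelp*, 1.52 (0.940 to 2.46) for *Lum* and 1.39 (1.23 to 1.57) for *Dcn*. It was 1.23 (0.824 to 1.83) for *Ogn*, 0.906 (0.726 to 1.13) for *Bgn*, 0.573 (0.232 to 1.30) for *Fmod* from 22 and 9 UMIs and 0.637 (0.173 to 1.99) for *Omd* from 11 and 5 UMIs. With only the called doublets left out the ratios were larger, 5.45 for *Aspn*, 2.68 for *Lum* and 2.19 for *Dcn*. The stroma marker sum in that gate, 552 and 853 CPM, was also higher in the knockout-label library, and so was the hemoglobin sum, 113 and 256 CPM, while the germ cell marker sum was lower, 79.9 and 0.752 CPM, and their part in these ratios was not tested.

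Within single stroma cells *Dcn* went with *Ogn*, *Lum* and *Aspn* but not with *Bgn*. Over 2869 and 2491 stroma cells thinned to 4000 UMIs, Spearman's rho between *Dcn* and *Ogn* was 0.363 and 0.292, between *Dcn* and *Lum* 0.334 and 0.342, and between *Dcn* and *Aspn* 0.281 and 0.306, whereas it was -0.022 and 0.012 between *Dcn* and *Bgn*. Cells of a library share their library and the thinned depth, and rho is given as a description. *Ogn* and *Aspn* reached 0.140 and 0.199, and 75.5% and 79.7% of cells with an *Aspn* UMI also had an *Ogn* UMI, against 60.1% and 60.8% of cells without *Aspn*. *Lum* with *Ogn* (0.097 and 0.062) and *Lum* with *Aspn* (0.063 and 0.073) were near 0. The ratio of variance to mean over cells was 6.64 and 6.46 for *Dcn*, 3.28 and 3.24 for *Lum*, 2.43 and 2.61 for *Aspn*, 2.14 and 1.98 for *Ogn* and 1.43 and 1.32 for *Bgn*, a measure that grows with the level and does not rank the genes by evenness.

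Likeness of pattern was measured by Pearson's r of log2(CPM + 5) over 16 sums, which were 4 stroma groups and the 4 other types in each library, for 15217 genes. The genes most like *Dcn* were *Dlk1* (r = 0.988), *Cxcl12* (0.988) and *Akap12* (0.987), and those most like *Bgn* were *Hic1* (0.993), *Gxylt2* (0.990) and the imprinted RNA *H19* (0.989). *Aspn* was nearest to *Slitrk5* (0.985), *Nrsn2* and *Mamdc2*, and *Ogn* was close to *Insyn1* (0.973) and *Slitrk5* (0.966). *Lum* was nearest to *Gabrb1* (0.957), the collagen gene *Col12a1* (0.956) and *Dcc* (0.952). For the low genes the 3 nearest were *Mrvi1*, *Adamtsl2* and *Gm13446* for *Fmod* (0.923 to 0.929), *Cbx2*, *P2ry1* and *Nnat* for *Prelp* (0.923 to 0.933), and *Dnah1*, *Ebf4* and *Tlcd2* for *Omd* (0.920 to 0.928).

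Among the members themselves, *Dcn*, *Ogn* and *Aspn* were alike (r = 0.920 to 0.938), *Omd* and *Bgn* came closest to *Ogn* (0.882 and 0.875), *Fmod* to *Bgn* (0.834), and *Lum* to *Dcn* (0.828). *Prelp* was least like the rest, from 0.227 with *Aspn* to 0.591 with *Bgn*. The sums share libraries and cell types, so these values describe the pattern and carry no test. The gene pairs depended on the scale, since 13 of 24 pairs of a member and a similar gene were among the nearest with log2(CPM + 1), and 5 of 24 over the type sums alone.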

How the data were processed

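Single-cell RNA-seq was performed by the authors with a 10x Genomics 3′ v3 kit on whole testes at postnatal day 2. According to the submitters' processing notes, Cell Ranger 3.1.0, Seurat 3.1.5 and GRCm38 were used. Transgene sequences (GFP, CRE) were part of the reference. The authors deposited 1 table of raw UMI counts for 12186 barcodes, without normalization or cell filter. No file pairs a barcode suffix with a genotype, so the larger set (6763 barcodes) was assigned to wild type and the smaller (5423) to knockout, from the cell numbers given in the paper's text. All 20 CRE UMIs lay in the latter.

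UMIs were summed per library and gated type. Fits used edgeR 4.0.16 (R 4.3.3, limma 3.58.1) with TMM, filterByExpr, library as a covariate and Benjamini-Hochberg adjustment over all genes tested, with a threshold of 0.05. DESeq2 1.42.0 was the alternative test. Genes with at least 20 UMIs entered library ratios. Python 3.11.15, NumPy 2.4.6, SciPy 1.17.1, pandas 2.3.3 and scanpy 1.11.5 (Scrublet) were used. Intervals are exact Poisson, Clopper-Pearson or conditional binomial at 95%. The fit was tested on simulated counts. Positions are from GENCODE vM21. The 8 genes, the gates and the lists were chosen with earlier results of these data known. All 8 genes are named. Otherwise the 3 most similar genes of each and at most 3 called genes per list, by size of difference, were eligible, and the genes next to *Aspn*, *Omd* and *Ogn* were added after their values were seen. A gene that this rule names for *Ogn* is not reported here. The lists were other small leucine-rich proteoglycans, chain synthesis and sulfation, proteases and procollagen processing, fibrillar collagens and partners, and ligands and receptors. Alternatives changed the scaling, low-count filter, test, cell filter, doublets, depth per cell and gates.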

Additional observations from a re-analysis of the deposited data

Results flagged for a closer look

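*Lum* moved in opposite directions with cycling in the libraries. The ratio of cycling to non-cycling stroma was 0.793 (95% counting interval 0.733 to 0.858) in the wild-type library and 1.15 (1.07 to 1.22) in the knockout-label library, and this difference was not tested, since there is 1 library per genotype. Without *Tbata* the ratios were 0.797 and 1.28, and with *Tbata* 1.04 and 0.944.

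UMIs of the 8 genes were also found outside the gates. In barcodes that failed the cell filter they summed to 1351 and 1071 CPM, and in kept cells of no gate to 1454 and 2112 CPM.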

How the results depend on the processing

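No paired analysis was possible because the table does not carry the numbers 1 to 8 that the labels give the libraries of both genotypes. Of 644 alternative values of 56 log2 differences, 614 kept direction and call, 20 lost the call, 3 gained it and 7 changed sign. Those 7 were *Lum* in myoid against Leydig cells (-0.0412, stricter cell filter), *Aspn* (0.0607, cells in every gate they pass) and *Omd* (-0.0123, at least 2 *Pdgfra* UMIs) with *Tbata*, *Lum* with cycling (-0.0352 without the low-count filter, -0.0173 with DESeq2, -0.13 with every gate) and *Bgn* with cycling (0.0051, every gate). With each library alone, as the log2 ratio of CPM without the other split, the *Tbata* difference of *Ogn* was -0.0449 to -0.0399 and of *Omd* -0.15 to 0.17, and the cycling difference of *Lum* was -0.33 to 0.20 and of *Fmod* -0.68 to 0.44.

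Counts of called members moved by over 1.5 times as follows. Lower in stroma than in myoid cells was 1 (DESeq2, thinning, every gate or cells of exactly 1 gate) in place of 2, where 10.4%, 13.2%, 9.77% and 4.02% of all genes were. Higher in stroma than in Leydig cells were 5 (stricter cell filter, thinning, cells of 1 gate) in place of 8, with 13.9%, 26.2% and 29.5% of all genes in place of 31.2%, and higher in myoid than in Leydig cells 2 (stricter cell filter) or 4 (thinning) in place of 7, with 14.8% and 25.3% of all genes in place of 30.3%. With *Tbata* 1 was higher (every gate), as were 3.88% of all genes. With cycling 0 were higher (DESeq2, thinning, every gate, at least 2 *Pdgfra* or *Tbata* UMIs) and 3 lower (thinning) in place of 5, while 19.8% to 26.3% of all genes were higher under those settings and 18.1% lower with thinning. By less, in cell type comparisons, higher in stroma than in myoid cells were 5 (no low-count filter) or 3 (DESeq2) in place of 4, with 9.22% and 9.95% of all genes in place of 13.8%. Higher in stroma than in Leydig cells were 7 (DESeq2, every gate), with 28.5% and 32.4% of all genes. Higher in myoid than in Leydig cells were 6 (DESeq2), with 28.6% of all genes. With *Tbata* 2 (every gate) or 4 (at least 2 *Tbata* UMIs) were lower in place of 3, with 4.83% and 4.99% of all genes in place of 4.53%. With cycling 4 (every gate) were lower in place of 5, with 24.6% of all genes in place of 23.9%. Thinned sums and cells of 1 gate tested only the 5 abundant genes, and called all 5 higher in stroma than in the Sertoli gate, where 37.0% and 34.9% of all genes were. Past 1.5-fold between libraries were, in myoid cells, 3 upward without doublets and 2 with every gate in place of 1, and 2 downward without doublets and 0 after thinning in place of 1, where 3.79% and 3.76% of all genes were past it upward and 4.49% and 5.45% downward. In Leydig cells 4 (stricter cell filter) or 1 (without doublets) were past it downward, where 14.4% and 6.24% of all genes were, and 1 upward (thinning or every gate), where 8.08% and 5.80% were, in place of 0. In the Sertoli gate without doublets 6 were past it upward, in place of 3, and 1 downward, where 3.52% and 8.57% of all genes were. Of the 24 pairs of most similar genes 13 were kept with log2(CPM + 1) and 5 over type sums. The cause was not tested. Depth limits *Fmod*, *Prelp* and *Omd*, with at most 110 UMIs per library and type.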
